A study of Rattus norvegicus with 10 samples.

Results

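Astrocyte genes were followed through RNA-seq of hippocampal slices from adult male Wistar rats in 5 treatment groups of 2 libraries each, 10 libraries in all. The members were 34 genes with a known place in astrocytes, taken by gene symbol from a count table of 32545 rat Ensembl genes. Every one of the 34 was found once in the table, and all 34 passed the filter on low counts that left 15032 genes for testing. The study asked whether TTK21, a small-molecule activator of the acetyltransferases CBP and p300, counters the effect of amyloid-beta oligomers (Aβ) on slices in which plasticity is induced by SKF, an agonist of dopamine D1/D5 receptors. Slices of the group SKF received the agonist only, and those of SKF+Aβ the agonist with Aβ. Beside both agents, SKF+Aβ+CSP received the empty carrier and SKF+Aβ+CSP-TTK21 the loaded one. The last group, CSP-TTK21 alone, received the loaded carrier without SKF and without Aβ. CSP is the glucose-derived carbon nanosphere used as carrier, without TTK21 it served as vehicle control, and CSP-TTK21 is the particle carrying the activator. SKF+Aβ+CSP is called the Vehicle group and SKF+Aβ+CSP-TTK21 the TTK21 group in what follows. Slices without any treatment are not analysed here. The labels give the tissue as hippocampus, and the study's methods add that CA1 was microdissected from slices collected 1 h after treatment, with material of 2 biological samples in each repeat. The slices are acute preparations that keep neurons, glia and vessels, so a library holds RNA of all of them.

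Astrocytes clear glutamate and potassium released by neurons, supply glutamine and metabolic substrates, are coupled to each other through gap junctions, and cover blood vessels with endfeet rich in water channels. The genes of these functions are often called homeostatic. Injury, inflammation and amyloid are known to turn astrocytes into a reactive state, in which intermediate filaments such as glial fibrillary acidic protein and vimentin accumulate over hours to days. The members were therefore divided by role, with the transport and homeostasis genes (13) kept apart from the reactive filament genes Gfap and Vim.

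Total counts lay between 6753742 and 8473407 per library, and the members took between 0.826% and 1.32% of them. The lowest count of any member in any library was 79, for Id4, where counting error alone gives a coefficient of variation of 11.3%. Levels are given as CPM, counts scaled to a common library size with TMM factors, and the 2 values quoted for a group are those of replicates 1 and 2. Differences are log2 fold changes of edgeR's quasi-likelihood fit over all 10 libraries, the group named first minus the group named second, with a Benjamini-Hochberg p-value adjusted over all 15032 genes. The standard error (SE) of a member's log2 fold change was between 0.14 and 0.30 in the 8 comparisons. In whole tissue, fewer astrocytes and less RNA per astrocyte cannot be told apart. The libraries held neuron, oligodendrocyte and microglia markers beside those of astrocytes, while the 4 tested of 5 ependymal markers summed to at most 12.5 CPM and the 2 of 6 choroid plexus markers that passed the filter to at most 6.70 CPM. Of the 3 CA1 markers, Fibcd1 was at a count of 0 in all 10 libraries and the other 2 passed the filter, as did all 3 dentate gyrus markers and 2 of 3 CA3 markers. The third CA3 marker, Iyd, had at most 10 counts in a library. The CA1 marker Wfs1 differed widely between replicates, with counts of 2662 and 756 in SKF+Aβ and 2652 and 778 in TTK21. Mpped1, the other tested CA1 marker, had 1070 and 1180 in SKF+Aβ and 1485 and 1307 in TTK21. Counts of the dentate gyrus marker Prox1 were at least 1024 in every library. The part of subfield content in the astrocyte values was not tested.

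The promoters of 4 members are shown because these genes carry the main contrasts described here, Gfap and Vim as the reactive filament genes and Ntsr2 and Gpr37l1 as the receptor genes with the lowest log2 fold change in SKF+Aβ against SKF. The sequences are the 250 bases before the annotated gene start, from RefSeq on the rat build GRCr8, which is not the build of the counts. They lie at chr10:88361662-88361911, minus strand for Gfap, chr17:81577011-81577260, plus strand for Vim, chr6:45152845-45153094, plus strand for Ntsr2 and chr13:49157205-49157454, minus strand for Gpr37l1, and each is written 5′ to 3′ on the strand of the gene. Capitals mark a match to a searched motif.
Gfap: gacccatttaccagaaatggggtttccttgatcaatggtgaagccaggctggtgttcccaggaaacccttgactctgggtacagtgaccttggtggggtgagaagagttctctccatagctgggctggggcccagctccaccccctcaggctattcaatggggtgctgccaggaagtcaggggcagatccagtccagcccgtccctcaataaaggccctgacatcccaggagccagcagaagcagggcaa
Vim: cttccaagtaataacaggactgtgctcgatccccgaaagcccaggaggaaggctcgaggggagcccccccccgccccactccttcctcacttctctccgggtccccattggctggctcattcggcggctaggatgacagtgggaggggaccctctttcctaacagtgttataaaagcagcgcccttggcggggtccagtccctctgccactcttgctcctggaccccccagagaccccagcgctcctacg
Ntsr2: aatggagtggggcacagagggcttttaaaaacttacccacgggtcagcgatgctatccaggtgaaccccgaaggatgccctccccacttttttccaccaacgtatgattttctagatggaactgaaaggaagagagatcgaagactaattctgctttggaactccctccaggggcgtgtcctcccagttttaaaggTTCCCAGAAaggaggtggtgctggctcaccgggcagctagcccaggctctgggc
Gpr37l1: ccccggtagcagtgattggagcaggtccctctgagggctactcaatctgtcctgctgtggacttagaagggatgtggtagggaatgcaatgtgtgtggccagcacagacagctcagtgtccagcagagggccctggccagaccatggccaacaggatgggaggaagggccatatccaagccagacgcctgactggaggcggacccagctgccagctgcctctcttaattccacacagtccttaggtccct
A window was held for 30 of the 34 members, and Clu, F3, Bmpr1b and Sox9 are named only. Both strands were searched for the cAMP response element TGACGTCA, the site of the CBP partner CREB, for the STAT-type element TTCNNNGAA, and for the palindromic NFI element. The STAT-type letters stood in the windows of 2 members, Acsbg1 and Ntsr2, and in 7.67% of all 33469 windows of this length. In Ntsr2 the match began 54 bases before the gene start. The cAMP response element was in the window of 0 of 30 members and in 1.59% of all windows, and the NFI element in 0 of 30 and 0.0359%. These matches describe letters in a short window and say nothing of binding.

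The astrocyte genes were, as a group, lowest in the SKF+Aβ and Vehicle slices, and higher in the SKF, TTK21 and CSP-TTK21 alone slices, but no single member passed edgeR's test in any comparison. Against SKF, 28 of 34 members had a lower fitted level in SKF+Aβ, with a median log2 fold change of -0.35, and 31 of 34 in Vehicle, with a median of -0.34. In the TTK21 slices the fitted level was higher than in SKF+Aβ for 34 of 34 members, with a median of 0.31. It was higher than in Vehicle for 33 of 34, with a median of 0.37. TTK21 and SKF+Aβ differ by the particle and its cargo, and TTK21 and Vehicle by the cargo. Between TTK21 and SKF, 16 members were higher and 18 lower in the former, with a median of -0.04 that was 0.22 without SKF replicate 2 and -0.20 without SKF replicate 1. Without SKF replicate 2 the medians of SKF+Aβ and Vehicle against SKF were -0.14 and -0.16, and without TTK21 replicate 2 that of TTK21 against Vehicle was 0.24. The median over all tested genes was between -0.01 and 0.01 in each of these comparisons. Microglia markers had median deviations between -0.59 and 0.09 in SKF+Aβ and Vehicle and between -0.25 and 0.58 in the other 3 groups, and their part in these values was not tested.

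Counts of members that passed the test were 0 in all 8 comparisons at an adjusted p under 0.05 in edgeR. Among all tested genes the share called was 2.08% for SKF+Aβ against SKF, 0.0200% for Vehicle against SKF, 0.00665% for TTK21 against SKF, and 0% in the other 5 comparisons. An unadjusted p under 0.05 was reached by 11 members in SKF+Aβ against SKF, all lower, where 10.9% of all genes were lower at that level. In Vehicle against SKF it was reached by 13 members, all lower, beside 9.03% of all genes. For TTK21 the numbers were 6 members higher than SKF+Aβ beside 2.52% of all genes, and 10 members higher than Vehicle beside 3.17%. It was reached by 2 members in TTK21 against SKF (19.6% of all genes), 0 in CSP-TTK21 alone against SKF (7.78%), 1 in Vehicle against SKF+Aβ (2.18%) and 1 in TTK21 against CSP-TTK21 alone (4.18%). A test for any difference over the 5 groups called 0 members, beside 0.00665% of all genes, and 12 members had an unadjusted p under 0.05, beside 14.3%. In this test over 5 groups DESeq2 called 5 members, beside 4.89% of the genes it adjusted, and limma 0. DESeq2 called 5 members in SKF+Aβ against SKF, all lower (Ntsr2, Fgfr3, Gpr37l1, Hepacam and Clu, with adjusted p from 0.0161 to 0.0398), beside 8.93% of the 9203 genes it adjusted, and 0 in the other 7 comparisons, while limma called 0 in all 8. With the replicate number as a block, edgeR called 2 members in that comparison, Ntsr2 (adjusted p = 0.0415) and Hepacam (adjusted p = 0.0473), beside 2.83% of all genes. With only 2 libraries per group, an exact permutation test on 1 gene cannot give a two-sided p below 0.333.

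Groups that did not overlap were counted as well. In SKF+Aβ against SKF, 16 members were lower and 1 higher without overlap, where 24.3% of all genes were lower and 25.2% higher without overlap. In Vehicle against SKF, 17 were lower and 0 higher, beside 25.3% and 27.1%. For TTK21, 21 members were higher and 0 lower than SKF+Aβ, beside 18.2% and 17.7% of all genes, and 25 were higher and 1 lower than Vehicle, beside 23.5% and 22.8%. In TTK21 against SKF, 2 members were higher and 3 lower without overlap, beside 26.0% and 24.5%, and in CSP-TTK21 alone against SKF, 0 were higher and 3 lower, beside 18.8% and 17.3%. The counts were 3 higher and 2 lower in Vehicle against SKF+Aβ, beside 14.3% and 12.9%, and 1 higher and 3 lower in TTK21 against CSP-TTK21 alone, beside 17.6% and 16.1%.

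**Figure D1:**
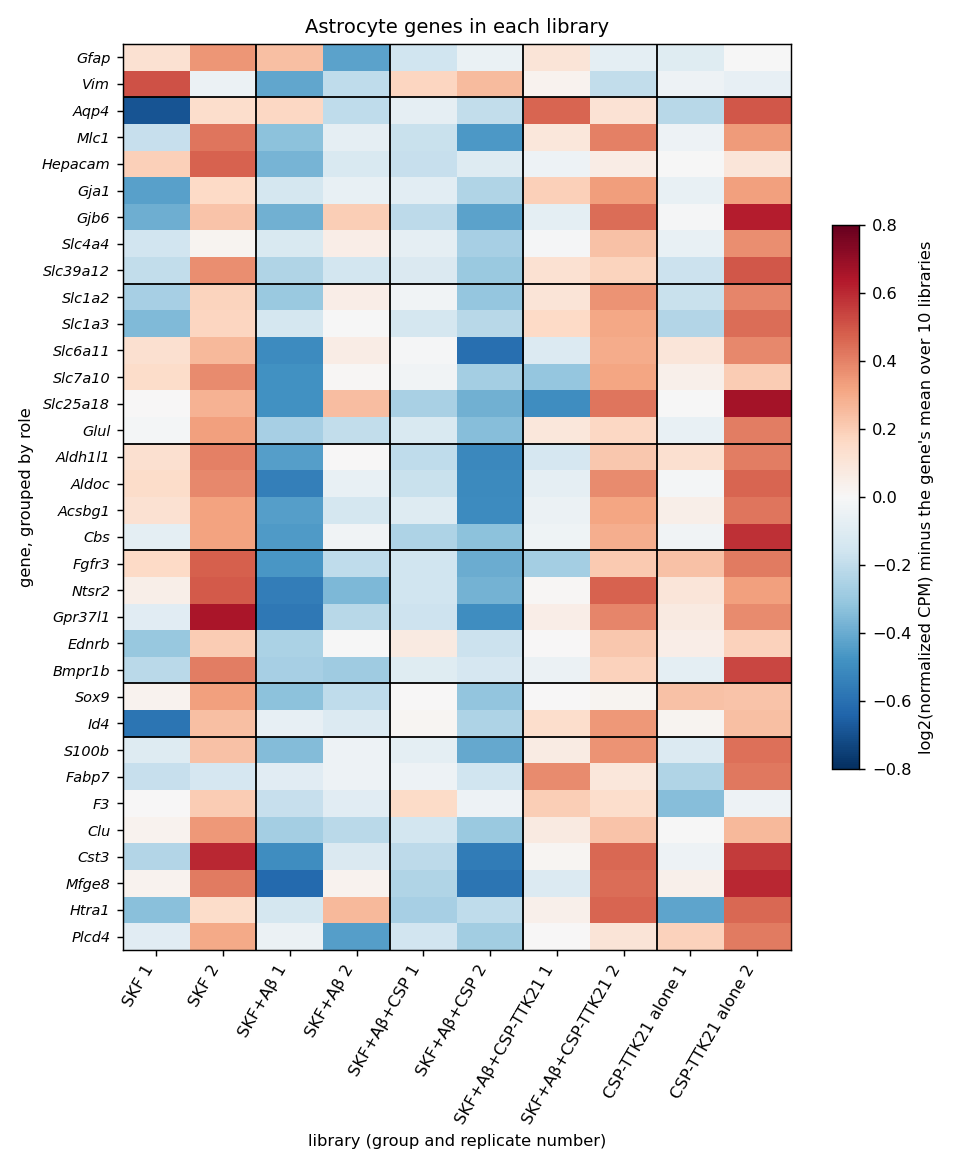
Heatmap of the 34 astrocyte genes (rows, grouped by role and separated by lines) in the 10 libraries (columns, 2 per group), where colour is log2 normalized CPM minus the gene's mean over the 10 libraries. Most rows are blue in SKF+Aβ replicate 1 and SKF+Aβ+CSP replicate 2 and red in SKF replicate 2, SKF+Aβ+CSP-TTK21 replicate 2 and CSP-TTK21 alone replicate 2.

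The gap between replicates was taken as the median deviation of the members in replicate 2 minus that in replicate 1. In SKF and in CSP-TTK21 alone this gap was larger in size than the median log2 fold change of the members, another measure, in any of the 8 comparisons. In each group most members were higher in the same replicate. In SKF, 33 of 34 members were higher in replicate 2 than in replicate 1, with a gap of 0.40 on the log2 scale, and Vim was the exception. In CSP-TTK21 alone 32 of 34 were higher in replicate 2 (gap 0.43), and 29 of 34 were in SKF+Aβ (0.25) and in TTK21 (0.28). In Vehicle the direction was the other way, with 4 of 34 higher in replicate 2 and a gap of -0.17. Over all tested genes the share higher in replicate 2 was between 49.3% and 51.8% in the 5 groups. Per library, the median deviation of the members from their mean over 10 libraries was -0.08 and 0.32 in SKF, -0.33 and -0.08 in SKF+Aβ, -0.13 and -0.30 in Vehicle, 0.01 and 0.29 in TTK21, and -0.02 and 0.41 in CSP-TTK21 alone. SKF replicate 1 lay at the level of SKF+Aβ replicate 2, and the SKF and SKF+Aβ groups met. All TTK21 and CSP-TTK21 alone values lay above all SKF+Aβ and Vehicle values. Leaving out SKF replicate 2 moved the median log2 fold change of the members to -0.14 in SKF+Aβ against SKF and to -0.16 in Vehicle against SKF, and leaving out SKF replicate 1 moved them to -0.55 and -0.54. For TTK21 the median stayed above 0 without any one library, between 0.22 and 0.45 against SKF+Aβ and between 0.24 and 0.49 against Vehicle, with both lowest values found without its own replicate 2.

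Gfap and Vim, the reactive filament genes, held the lowest log2 fold changes of the 34 members in TTK21 against SKF+Aβ and against Vehicle, respectively. Gfap, the filament protein by which astrocytes are usually recognised, had normalized CPM of 1042 and 1218 in SKF, 1129.5 and 709.6 in SKF+Aβ, 857 and 921 in Vehicle, 1026 and 904 in TTK21 and 892 and 955 in CSP-TTK21 alone. Its highest and lowest values were in SKF replicate 2 and SKF+Aβ replicate 2, and SKF+Aβ replicate 1 lay between the SKF libraries. Both Vehicle, both TTK21 and both CSP-TTK21 alone libraries lay below both SKF libraries, with 3 log2 fold changes against SKF of -0.35, -0.23 and -0.29 (adjusted p in edgeR 0.318, 0.511 and 0.693). Without SKF replicate 2 these 3 were -0.23, -0.11 and -0.17. For SKF+Aβ against SKF the log2 fold change of Gfap was -0.30 with a 95% interval of -0.69 to 0.10, and for TTK21 against SKF+Aβ it was 0.07 with an interval of -0.32 to 0.46. The former was -0.02 without SKF+Aβ replicate 2 and -0.69 without SKF+Aβ replicate 1. The latter was the lowest of the 34 members, and its sign turned with library totals in place of TMM factors (-0.01) and without SKF+Aβ replicate 2 (-0.22) or TTK21 replicate 1 (-0.02).

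Vim encodes vimentin, a filament of reactive astrocytes that endothelial and other mesenchymal cells make too. Its normalized CPM was 76.6 and 52.1 in SKF, 40.4 and 46.8 in SKF+Aβ, 60.7 and 64.2 in Vehicle, 55.0 and 46.9 in TTK21 and 52.2 and 51.3 in CSP-TTK21 alone. The SKF+Aβ libraries were the lowest pair, below both SKF libraries, while the Vehicle libraries lay between the 2 SKF values. The log2 fold change was -0.56 (SE 0.18, adjusted p = 0.0964) in SKF+Aβ against SKF by edgeR, and 0.52 (SE 0.18, adjusted p = 1.00) in Vehicle against SKF+Aβ, the highest of the members in the latter. Vim was also the only member with a lower level in TTK21 than in Vehicle, -0.29 (SE 0.18, adjusted p = 0.621) in edgeR, where the groups did not overlap, and the member with the lowest log2 fold change in CSP-TTK21 alone against SKF, -0.31. These last 2 values became -0.19 without TTK21 replicate 2 and -0.01 without SKF replicate 1, respectively. Without SKF replicate 2, edgeR called Vim in SKF+Aβ against SKF, with a log2 fold change of -0.81 and an adjusted p of 0.0452, and without SKF replicate 1 the log2 fold change was -0.27. That call rests on 1 SKF library, which had the highest Vim level of all 10 and is assumed to vary like the other groups. The endothelial markers (6 tested) had their highest median deviation in the same library as Vim, SKF replicate 1, at 0.66, with values between 0.18 and 0.62 in Vehicle, and their part in the Vim values was not tested.

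**Figure D2:**
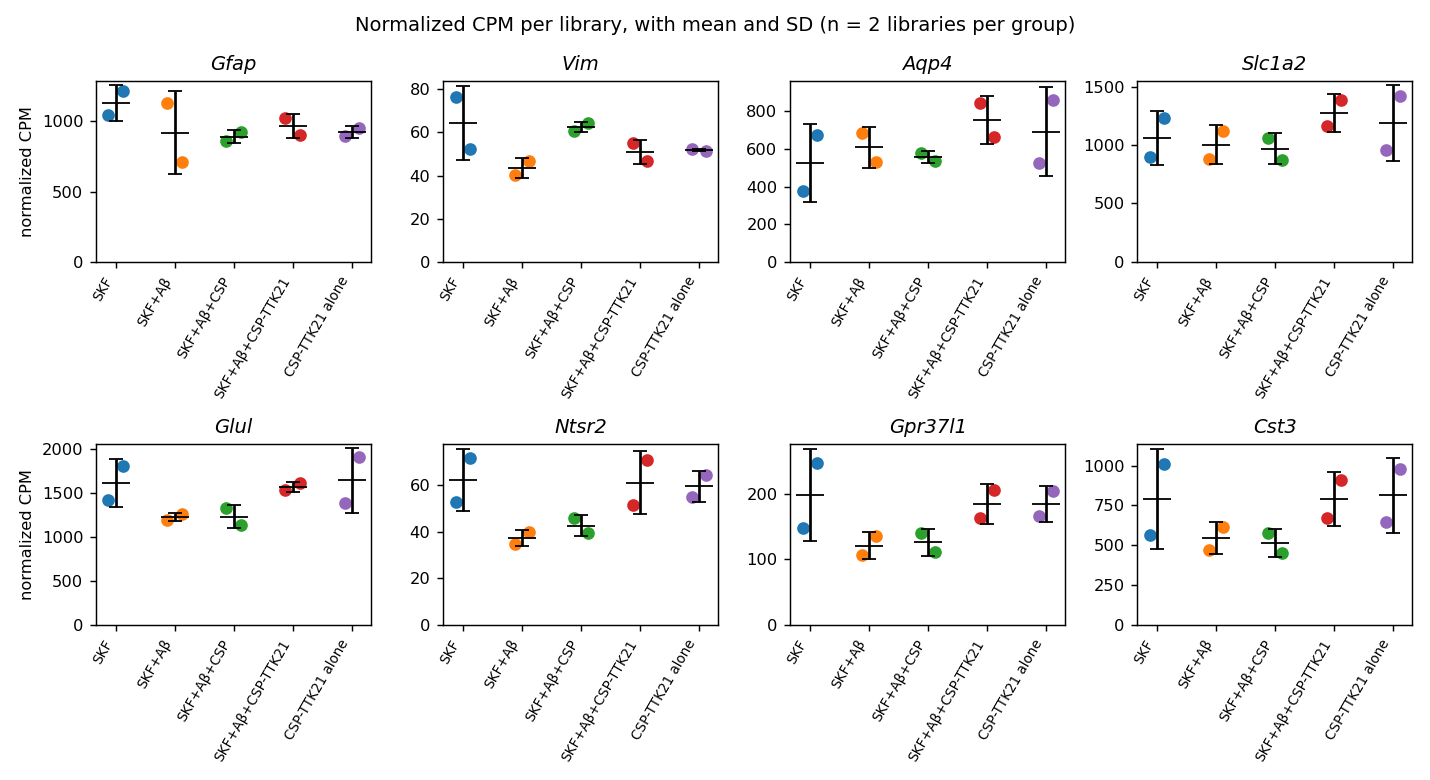
Normalized CPM (vertical axis, linear from 0) of 8 astrocyte genes in the 5 groups, with 1 point per library and the group mean ± SD (n = 2) as a bar. All SKF+Aβ and SKF+Aβ+CSP points of Ntsr2, Gpr37l1 and Glul lie below both SKF points, those of Aqp4, Slc1a2 and Cst3 overlap with SKF, and the SKF libraries are far apart in Aqp4, Gpr37l1 and Cst3.

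Water, ion and gap junction genes (7) divided under Aβ. Their median log2 fold change was -0.02 in SKF+Aβ against SKF, with 3 members higher and 4 lower, and 0.43 in TTK21 against Vehicle, where 7 of 7 were higher without overlap, beside 23.5% of all genes. Aqp4, the water channel of the endfeet, had normalized CPM of 379 and 673 in SKF, 686 and 530.3 in SKF+Aβ, 580.5 and 534 in Vehicle, 845 and 661 in TTK21 and 523 and 860.0 in CSP-TTK21 alone. The SKF libraries were far apart, and SKF replicate 1 was the lowest of all 10. Aqp4 had the highest log2 fold change of the members in all 4 comparisons against SKF, 0.21 in SKF+Aβ, 0.08 in Vehicle, 0.52 in TTK21 and 0.40 in CSP-TTK21 alone, with adjusted p from 0.290 to 0.898 in edgeR. Without SKF replicate 1 these 4 became -0.16, -0.29, 0.15 and 0.03, and the last became -0.01 without CSP-TTK21 alone replicate 2.

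Gja1, the main connexin of astrocytes, had normalized CPM of 417 and 628 in SKF, 509.9 and 539 in SKF+Aβ, 531 and 477 in Vehicle, 643 and 710.4 in TTK21 and 539 and 706 in CSP-TTK21 alone. The SKF+Aβ values lay within the range of the SKF values, and the log2 fold change between them was 0.01 with a 95% interval of -0.39 to 0.40. Both TTK21 values lay above all SKF, SKF+Aβ and Vehicle values of Gja1, by 0.43 (SE 0.18, adjusted p = 0.563) on the log2 scale against Vehicle in edgeR. The other connexin, Gjb6, and the bicarbonate cotransporter Slc4a4 likewise stood near 0 in SKF+Aβ against SKF, at -0.02 and 0.03. Hepacam and Mlc1, membrane proteins that form a complex at astrocyte contacts, were lower there, at -0.58 (SE 0.15, adjusted p = 0.0628) and -0.35 (SE 0.20, adjusted p = 0.317) in edgeR, and the zinc transporter Slc39a12 was at -0.31. Hepacam had normalized CPM of 52.9 and 64.5 in SKF and 35.9 and 42.6 in SKF+Aβ, groups that did not overlap, and at 45.1 and 48.5 its TTK21 values also lay below both SKF values. Mlc1 ran from 182 in Vehicle replicate 2 to 338 in SKF replicate 2, and it had the highest log2 fold change of this role group in TTK21 against Vehicle, 0.57 (SE 0.20, adjusted p = 0.556) in edgeR.

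Among the genes of glutamate, GABA and amino acid handling (6), the fitted levels of the glutamate transporters in SKF+Aβ were close to those in SKF, and that of glutamine synthetase was lower. The 95% intervals of both transporters include the estimate for glutamine synthetase, and a difference between these genes was not tested. Slc1a2, which takes up most synaptic glutamate, had normalized CPM of 899 and 1226 in SKF, 883 and 1121 in SKF+Aβ, 1061 and 873 in Vehicle, 1161 and 1386 in TTK21 and 958 and 1418 in CSP-TTK21 alone. SKF and SKF+Aβ overlapped, with a log2 fold change of -0.09 and a 95% interval of -0.53 to 0.36, and both TTK21 values lay above the SKF+Aβ and Vehicle values, at 0.40 (SE 0.20, adjusted p = 0.577) in edgeR against Vehicle. Slc1a3, the second astrocytic glutamate transporter, had normalized CPM of 653 and 938 in SKF, 756 and 831 in SKF+Aβ, 755 and 715 in Vehicle, 929.9 and 1033 in TTK21 and 709 and 1135 in CSP-TTK21 alone. It was at 0.00 in SKF+Aβ against SKF, with an interval of -0.44 to 0.44, and its 2 SKF values enclosed both SKF+Aβ values.

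Glul, the glutamine synthetase that turns the glutamate taken up into glutamine, had normalized CPM of 1419 and 1802 in SKF, 1193 and 1251 in SKF+Aβ, 1319 and 1131 in Vehicle, 1527 and 1605 in TTK21 and 1378 and 1900.3 in CSP-TTK21 alone. All 4 SKF+Aβ and Vehicle libraries lay below the 6 others. The log2 fold changes of Glul were -0.40 (SE 0.17, adjusted p = 0.177) in SKF+Aβ and -0.39 (SE 0.17, adjusted p = 0.220) in Vehicle, each against SKF, and 0.36 (SE 0.17, adjusted p = 0.746) in TTK21 against SKF+Aβ, all by edgeR. The GABA transporter Slc6a11, the serine and small amino acid transporter Slc7a10 and the mitochondrial glutamate carrier Slc25a18 had log2 fold changes of -0.39, -0.49 and -0.22 in SKF+Aβ against SKF, and adjusted p from 0.223 to 0.695 in edgeR. Over the 13 transport and homeostasis genes together, the median was -0.22 in SKF+Aβ against SKF with 3 higher and 10 lower, and -0.32 in Vehicle against SKF with 1 higher and 12 lower. It was 0.31 in TTK21 against SKF+Aβ and 0.38 against Vehicle, with 13 of 13 higher in both. Leaving out SKF replicate 2 brought the first 2 medians to 0.01 and -0.01, and leaving out SKF+Aβ replicate 1 brought the third to 0.18.

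The other metabolic genes (4) were among the members with the lower values under Aβ, with a median log2 fold change of -0.49 in SKF+Aβ and -0.56 in Vehicle, each against SKF. Aldoc, the brain form of the glycolytic aldolase, had normalized CPM of 694 and 816 in SKF, 428 and 601 in SKF+Aβ, 554 and 440.3 in Vehicle and 596 and 815 in TTK21. Acsbg1, which activates long-chain fatty acids, had 182 and 209, 123 and 152, 156 and 118 and 162 and 208 in these groups. For both genes the SKF+Aβ and Vehicle values lay below both SKF values, at -0.55 (SE 0.21, adjusted p = 0.141) and -0.51 (SE 0.18, adjusted p = 0.129) for SKF+Aβ in edgeR. Aldh1l1, a folate enzyme widely used as an astrocyte marker, was at -0.47 (SE 0.20, adjusted p = 0.188) in that comparison and at -0.62 (SE 0.20, adjusted p = 0.141) in Vehicle against SKF. Cbs, an enzyme of the cysteine pathway, was at -0.36 and -0.42.

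The receptor genes (5) had the lowest median of the role groups in SKF+Aβ against SKF, -0.65, and a median of -0.55 in Vehicle against SKF. Ntsr2, a neurotensin receptor, had normalized CPM of 52.9 and 72.0 in SKF, 34.9 and 39.9 in SKF+Aβ, 45.8 and 39.4 in Vehicle, 51.5 and 71.0 in TTK21 and 54.9 and 64.4 in CSP-TTK21 alone. The 4 libraries of SKF+Aβ and Vehicle were the lowest 4, and the other 6 lay above them. Its log2 fold change of -0.74 (SE 0.19, adjusted p = 0.0628) in SKF+Aβ against SKF was the lowest of the 34 members in edgeR, and 0.71 (SE 0.19, adjusted p = 0.746) in TTK21 against SKF+Aβ was the highest, which was 0.46 without TTK21 replicate 2. Gpr37l1, an orphan receptor coupled to G proteins, had normalized CPM of 148 and 247 in SKF, 106 and 135 in SKF+Aβ, 140.1 and 111 in Vehicle, 163 and 206 in TTK21 and 165 and 204 in CSP-TTK21 alone. The SKF replicates differed widely, yet both lay above all SKF+Aβ and Vehicle values, and the log2 fold change in Vehicle against SKF was the lowest of the members, -0.65 (SE 0.22, adjusted p = 0.152) in edgeR. It moved to -0.23 without SKF replicate 2 and to -0.99 without SKF replicate 1.

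Fgfr3, a fibroblast growth factor receptor, had normalized CPM of 82.1 and 103 in SKF, 53.4 and 64.1 in SKF+Aβ, 66.0 and 55.8 in Vehicle, 61.1 and 85.1 in TTK21 and 86.5 and 98.4 in CSP-TTK21 alone. It was lower in SKF+Aβ and in Vehicle than in both SKF libraries, at -0.65 (SE 0.18, adjusted p = 0.0715) and -0.60 (SE 0.18, adjusted p = 0.116) in edgeR. The fitted level of Fgfr3 was also lower in TTK21 than in SKF, at -0.34 (SE 0.18, adjusted p = 0.316), and than in CSP-TTK21 alone, at -0.34 (SE 0.18, adjusted p = 0.963), the lowest log2 fold change of the members in both comparisons in edgeR. Both became -0.12 without TTK21 replicate 1. The endothelin receptor Ednrb was at -0.10 and -0.02 in SKF+Aβ and Vehicle against SKF, and the bone morphogenetic protein receptor Bmpr1b at -0.41 and -0.25.

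Of the 2 transcription regulators, Sox9, which drives the astrocyte programme, had normalized CPM of 114 and 140.3 in SKF, 89.1 and 97.3 in SKF+Aβ, 112 and 90.0 in Vehicle, 112 and 113 in TTK21 and 132 and 131 in CSP-TTK21 alone. Its groups SKF and SKF+Aβ did not overlap, with a log2 fold change of -0.45 (SE 0.15, adjusted p = 0.0988) in edgeR. Id4, an inhibitor of helix-loop-helix factors, was at 0.02 in that comparison.

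Of the 8 secreted, binding and other proteins, 6 were lower and 2 higher in SKF+Aβ than in SKF. Cst3, the protease inhibitor cystatin C, had normalized CPM of 566 and 1011 in SKF, 472 and 614 in SKF+Aβ, 576 and 452 in Vehicle, 672 and 912 in TTK21 and 647 and 981 in CSP-TTK21 alone. The 2 SKF values enclosed SKF+Aβ replicate 2 and Vehicle replicate 1, whereas both TTK21 values lay above all 4 SKF+Aβ and Vehicle values. Its log2 fold change in TTK21 against Vehicle, 0.62 (SE 0.26, adjusted p = 0.563) in edgeR, was the highest of the members, and it was 0.38 without TTK21 replicate 2. Clu, the chaperone clusterin, and Mfge8, which bridges dying material to phagocytes, had log2 fold changes of -0.44 (SE 0.14, adjusted p = 0.102) and -0.50 (SE 0.25, adjusted p = 0.254) in SKF+Aβ against SKF, and of 0.37 and 0.59 in TTK21 against Vehicle. Plcd4, a phospholipase C, was at -0.35 in the former and 0.26 in the latter.

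S100b, a calcium-binding protein, was at -0.26 in SKF+Aβ against SKF and 0.45 in TTK21 against Vehicle. Fabp7, a fatty acid binding protein of radial glia and astrocytes, was the only member higher without overlap in SKF+Aβ than in SKF, at 88.1 and 91.2 against 82.8 and 85.7 normalized CPM, a log2 fold change of 0.09 with a 95% interval of -0.31 to 0.49. Htra1, a secreted serine protease, had normalized CPM of 83.1 and 116 in SKF, 94.7 and 125 in SKF+Aβ, 87.0 and 90.7 in Vehicle, 107 and 144 in TTK21 and 77.9 and 144 in CSP-TTK21 alone. Its SKF+Aβ and SKF groups overlapped, and in Vehicle against SKF+Aβ it had the lowest log2 fold change of the members, -0.31 (SE 0.25, adjusted p = 1.00) in edgeR, which was -0.09 without SKF+Aβ replicate 2. F3, the coagulation tissue factor, had normalized CPM of 51.8 and 59.7 in SKF, 45.5 and 48.7 in SKF+Aβ, 57.7 and 50.4 in Vehicle, 59.3 and 57.0 in TTK21 and 40.9 and 50.3 in CSP-TTK21 alone. Both TTK21 values lay above both CSP-TTK21 alone values, at 0.35 (SE 0.15, adjusted p = 0.963) in edgeR, the highest of the members there, which was 0.21 without CSP-TTK21 alone replicate 1.

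The comparisons of TTK21 with Vehicle and with SKF+Aβ can be set beside the Aβ comparisons without a shared library. SKF+Aβ against SKF and TTK21 against Vehicle use 8 different libraries, and 27 of 34 members were lower in the former and higher in the latter, a combination found for 27.3% of all tested genes. Another 6 members were higher in both (Aqp4, Htra1, Fabp7, Slc4a4, Id4 and Gja1), and Vim was lower in both. For Vehicle against SKF and TTK21 against SKF+Aβ the numbers were 31 lower then higher, 3 higher in both and 0 lower in both, with 31.6% of all genes in the first combination. No test of the members as a set was made. In Vehicle against SKF+Aβ, 13 members were higher and 21 lower, with a median of -0.04 that lay between -0.12 and 0.13 without single libraries, the highest without SKF+Aβ replicate 2. In TTK21 against CSP-TTK21 alone, 13 were also higher and 21 lower, with a median of -0.04 that lay between -0.21 and 0.16, the latter without CSP-TTK21 alone replicate 2. In CSP-TTK21 alone against SKF, 25 members were higher and 9 lower, with a median of 0.07, which was -0.18 without CSP-TTK21 alone replicate 2 and 0.33 without SKF replicate 2.

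**Figure D3:**
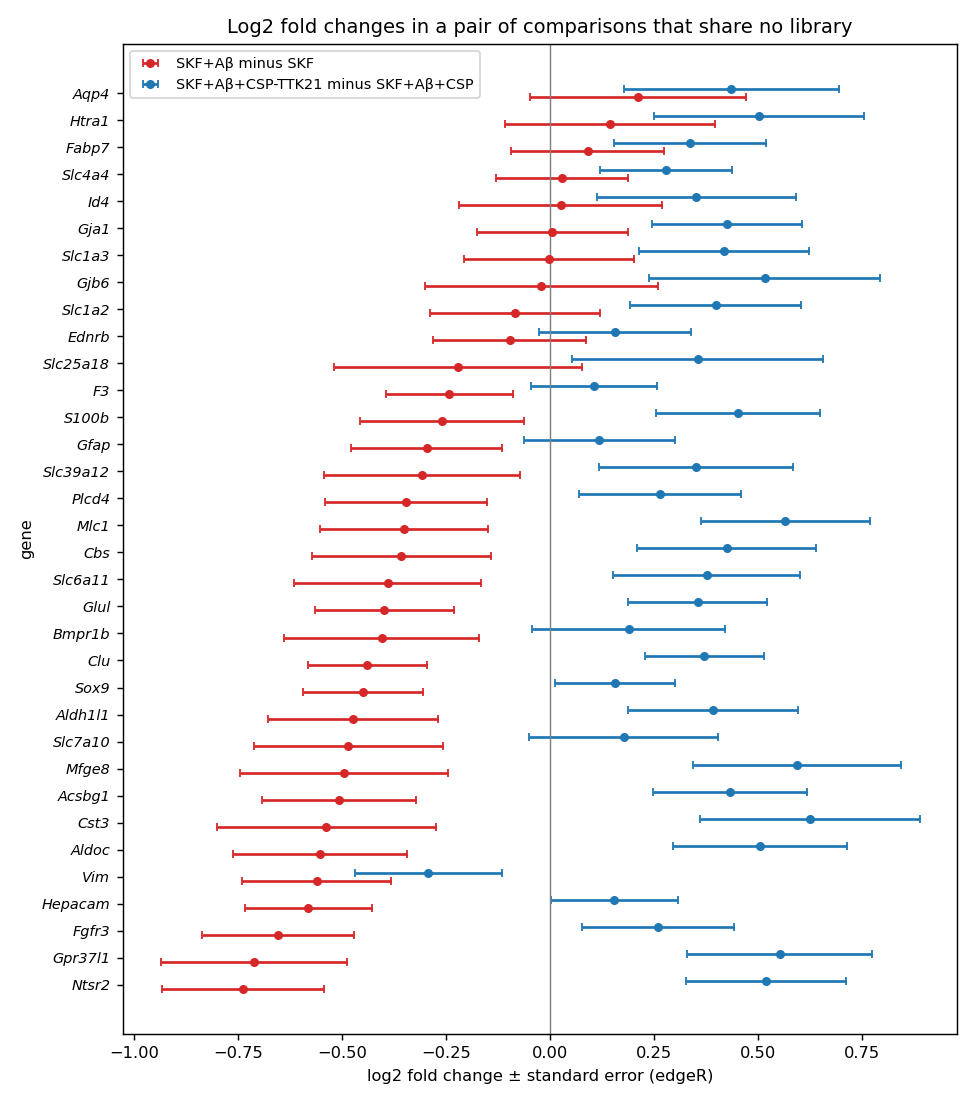
Log2 fold changes (horizontal axis) with standard errors for the 34 astrocyte genes in SKF+Aβ against SKF (red), from which the order of genes is taken, and in SKF+Aβ+CSP-TTK21 relative to SKF+Aβ+CSP (blue). Blue points lie right of 0 for 33 genes, with Vim at -0.29, and red points run from -0.74 for Ntsr2 to 0.21 for Aqp4.

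A further list of homeostatic astrocyte genes, which shares no gene with the 34, gave values of the same direction. It was measured in the same libraries and chosen with earlier results of these data known, so it is not independent support. Of its 41 tested genes, 31 were lower and 10 higher in SKF+Aβ than in SKF, with a median of -0.27, and 37 were higher and 4 lower in TTK21 than in Vehicle, with a median of 0.34. Per library, the median deviation of the 41 ran from -0.11 to 0.30 in SKF and from -0.21 to -0.06 in SKF+Aβ, so these groups overlapped. In SKF+Aβ against SKF, edgeR called 3 of the 41, all lower, beside 2.08% of all tested genes in either direction. Apoe, the lipid carrier of astrocytes, fell from 2069 and 2574 to 1117 and 1372 normalized CPM (log2 fold change -0.90, SE 0.20, adjusted p = 0.0431). Bcan, the matrix proteoglycan brevican, fell from 380.0 and 490.1 to 257 and 272 (-0.72, SE 0.16, adjusted p = 0.0422). Mt3, a metal-binding metallothionein, fell from 143 and 136 to 72.5 and 98.7 (-0.71, SE 0.16, adjusted p = 0.0444). DESeq2 and limma called the same 3 genes, with adjusted p up to 0.0408. In edgeR each of the 3 lost its call without any one library of SKF, SKF+Aβ or Vehicle, and Mt3 also without either library of CSP-TTK21 alone, with log2 fold changes that stayed between -1.07 and -0.52. All 3 also lost it in a fit of only the 4 libraries compared (adjusted p = 0.0833 for Apoe, 0.0958 for Bcan and 0.102 for Mt3). None of the 41 was called in the other 7 comparisons, where an unadjusted p under 0.05 was reached by 11 in Vehicle against SKF (all lower, beside 9.03% of all genes in that direction), 8 in TTK21 against Vehicle (all higher, beside 3.17%), 5 in TTK21 against SKF+Aβ (all higher, beside 2.52%), and 0 or 1 in the other 4.

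Further genes of the reactive and acute astrocyte response were not mostly lower under Aβ. Of 29 tested, 14 were higher and 15 lower in SKF+Aβ than in SKF, with a median of -0.01, and 23 were lower and 6 higher in TTK21 than in Vehicle, with a median of -0.49. In TTK21 against SKF+Aβ, 14 were higher and 15 lower, with a median of -0.04, while Vehicle had 19 higher and 10 lower than SKF (median 0.19) and 24 higher and 5 lower than SKF+Aβ (0.24). Per library, the median deviation of the 29 genes ran from -0.39 to 0.14 in TTK21 and from 0.18 to 0.30 in Vehicle. It ran from -0.23 to 0.38 in SKF and from -0.28 to 0.17 in SKF+Aβ. Both Vehicle values thus lay between the SKF values, and the higher TTK21 and SKF+Aβ values were near the lower Vehicle value. In TTK21 against Vehicle, 14 genes were lower and 4 higher without overlap, beside 22.8% and 23.5% of all genes. Among the 29, edgeR called 1 in SKF+Aβ against SKF, beside 2.08% of all tested genes. It was Socs3, the feedback inhibitor of cytokine signaling, which fell from 55.2 and 57.9 normalized CPM in SKF to 29.3 and 33.1 in SKF+Aβ (log2 fold change -0.86, SE 0.20, adjusted p = 0.0454). DESeq2 (adjusted p = 0.00674) and limma (0.0432) also called Socs3, while its edgeR call was lost without any one library of SKF, SKF+Aβ or Vehicle, and in a fit of only the 4 libraries compared (adjusted p = 0.0755). Its log2 fold change stayed between -0.96 and -0.79 without single libraries and was -0.85 in the latter fit. None was called in the other 7 comparisons, where 6 had an unadjusted p under 0.05 in TTK21 against SKF (beside 19.6% of all genes) and in Vehicle against SKF+Aβ (beside 2.18%), and between 1 and 3 in the other 5. Many genes of this list are also made by endothelial cells and microglia.

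Markers of other cells were compared with the astrocyte genes library by library, and they differed in direction between cell types and comparisons. Neuron markers (12 of 12 tested, none at a count of 0 in any library) had median deviations between -0.11 and 0.16 in all 10 libraries, a narrower range than that of the members, -0.33 to 0.41. In TTK21 against Vehicle, however, 12 of 12 were higher, 10 of them without overlap (beside 23.5% of all genes), with a median log2 fold change of 0.21. Of the 12, edgeR called 0, and 1 had an unadjusted p under 0.05, beside 3.17% of all genes higher at that level. Microglia markers (10 of 10 tested, none at 0) had medians of -0.25 and 0.52 in SKF, -0.59 and 0.09 in SKF+Aβ, -0.20 and -0.47 in Vehicle, -0.03 and 0.58 in TTK21, and 0.06 and 0.45 in CSP-TTK21 alone. In every group the library with the higher microglia median was also the one with the higher astrocyte median. Summed over the list, microglia markers ranged from 159 to 268 normalized CPM in SKF, 160.4 to 204 in SKF+Aβ, 156 to 182 in Vehicle, 193 to 269 in TTK21 and 201 to 256 in CSP-TTK21 alone. Oligodendrocyte markers (8 of 8 tested, none at 0) had medians from -0.60 in SKF+Aβ replicate 2 to 0.61 in TTK21 replicate 1, with 0.05 and 0.11 in Vehicle, and summed to between 16687 and 24666 CPM in SKF and between 11308 and 16115 CPM in SKF+Aβ. In SKF+Aβ against SKF 8 of 8 had a lower fitted level, with a median log2 fold change of -0.51. Of these, 5 were lower without overlap (beside 24.3% of all genes). In TTK21 against SKF+Aβ 8 of 8 had a higher fitted level, with a median of 0.56, but only 1 without overlap (beside 18.2%). The median deviation of TTK21 replicate 2, -0.25, lay below that of SKF+Aβ replicate 1, -0.13. In SKF+Aβ against SKF, 8 of 10 microglia markers (median -0.26) and 5 of 6 endothelial markers (-0.25) were lower too. In edgeR 0 markers of these 3 lists were called there. An unadjusted p under 0.05 was reached by 4 oligodendrocyte, 2 microglia and 1 endothelial markers, all lower, beside 10.9% of all genes in that direction. Oligodendrocyte precursor markers (4 of 4 tested, none at 0) had medians of -0.26 and 0.41 in SKF, -0.30 and -0.29 in SKF+Aβ, -0.10 and -0.26 in Vehicle, 0.31 and 0.09 in TTK21, and 0.13 and 0.25 in CSP-TTK21 alone. In SKF+Aβ against SKF all 4 were lower, with a median log2 fold change of -0.49, and in TTK21 against Vehicle all 4 were higher, with a median of 0.40. Endothelial markers (6 of 8 tested, with Cldn5 at 0 in all libraries) had the higher median in replicate 1 of every group, while the astrocyte genes had it in replicate 2 of 4 groups. In TTK21 against Vehicle, 6 of 6 endothelial markers were lower without overlap (beside 22.8% of all genes), with a median of -1.01. Of these edgeR called 0, and 5 had an unadjusted p under 0.05, beside 844 of all 15032 genes lower at that level. They had median deviations of -0.28 and -0.54 in TTK21, and summed to between 171 and 183 CPM there, against 203 to 326 CPM in SKF and 258 to 315 CPM in Vehicle. Of the sums in TTK21, 97.7 and 91.4 CPM were Slc2a1, a glucose transporter gene that is also among the 41 further homeostatic genes. The part of cell composition in the values of the astrocyte genes was not tested.

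**Figure D4:**
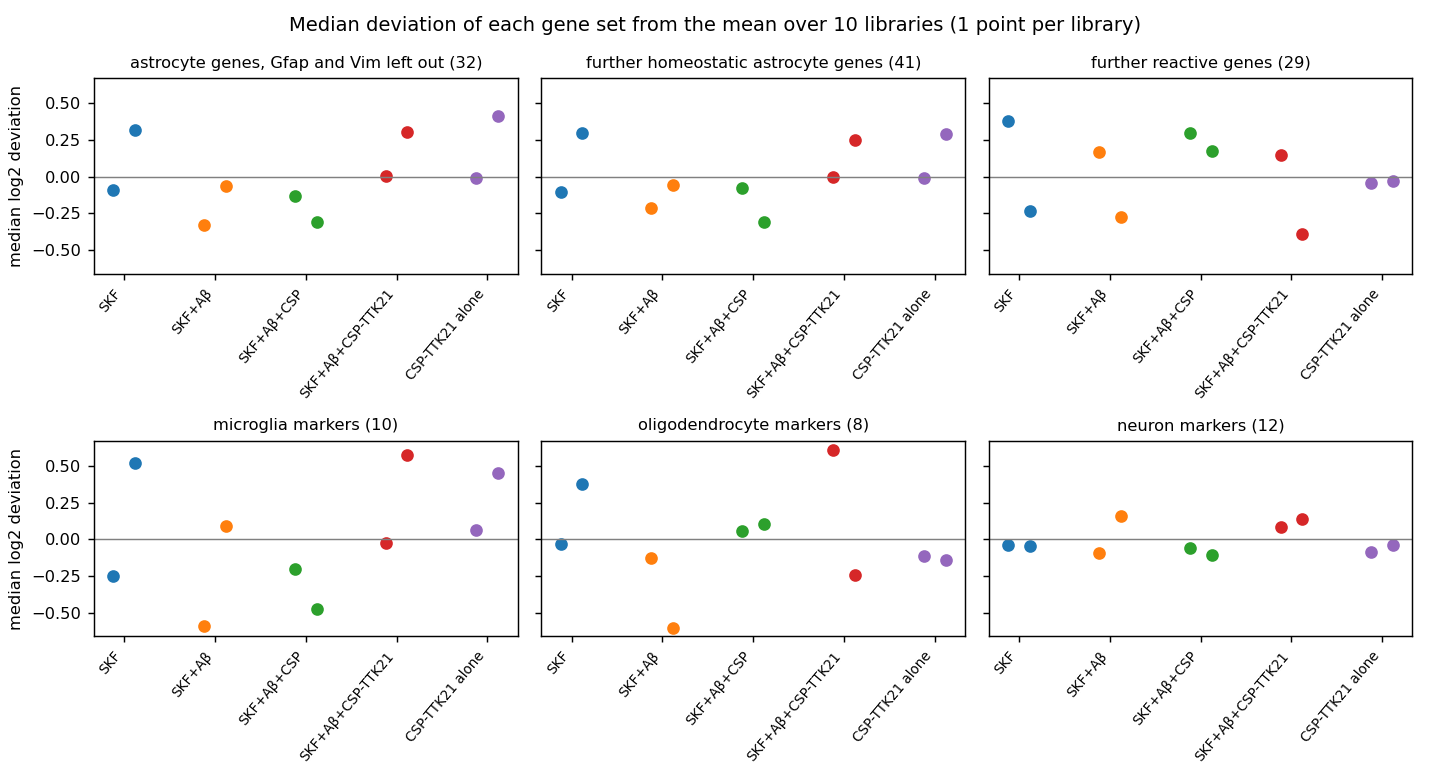
Median log2 deviation from the mean over 10 libraries (vertical axis) for 6 gene sets in the 5 groups, with 1 point per library. The astrocyte genes without Gfap and Vim (32), the further homeostatic genes and the microglia markers are below 0 in both SKF+Aβ+CSP libraries and in SKF+Aβ replicate 1, while neuron markers stay between -0.11 and 0.16.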

How the data were processed

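Total RNA of the 10 slice libraries had been sequenced after ribosomal RNA depletion with a stranded kit. The authors deposited 1 table of gene counts, whole numbers that were not normalized, with Ensembl gene identifiers and symbols for 32545 genes. The study's methods name Trim Galore, Samtools rmdup, TopHat2 and Cufflinks with the rat build Rnor_6.0, and in another place mm10, while the submitters' processing notes list STAR, RSEM, HISAT2, Salmon and GRCh38. Which program made the counts, and whether strand was used, is not given in the sources used here, and values of overlapping genes or close paralogs are uncertain for that reason. Removal of duplicate reads, where it was applied, can lower the counts of abundant genes.

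The main tool was edgeR 4.0.16 in R 4.3.3 (filterByExpr, TMM factors, quasi-likelihood F-test, a mean per group over all 10 libraries, and Benjamini-Hochberg adjustment over 15032 genes). The call was an adjusted p under 0.05. The 8 comparisons share groups, 4 of them the SKF libraries, so their values are not independent. The deviation of a gene in a library is its log2 CPM, with a prior count of 2, minus its mean over the 10 libraries. The members with values in every library were Gfap, Vim, Aqp4, Slc1a2, Slc1a3, Glul and Gja1 by choice, and the members with the highest and the lowest log2 fold change in each comparison. Other members given with values were taken by role. The members, roles and further gene lists were chosen with earlier results of these data known. Alternatives were DESeq2 1.42.0, limma 3.58.1, other scaling factors, no filter or at least 10 counts in every library, a replicate block, fits of the 4 libraries compared, and leaving out each library. The scripts were tested on simulated data. The study calls the 2 libraries of a group biological replicates, and p-values rest on the spread between replicates pooled over the 5 groups. Replicates differed by more than counting error in every group (chi-square per degree of freedom 4.73 to 12.1). All columns of the table were used (0 left out). Comparing levels between genes would need transcript lengths, which were not used here.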

Additional observations from a re-analysis of the deposited data

How the results depend on the processing

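The count of members called was 0 in the 8 comparisons and moved with the tool and the filter. In SKF+Aβ against SKF it was 5 with DESeq2 (beside 8.93% of genes), 4 with DESeq2 without independent filtering (4.34%), 12 without a filter on low counts (5.19%), and 0 to 1 without single libraries, and 2 with the replicate number as a block (2.83%). Without the filter it was 10 in Vehicle against SKF (beside 2.99% of all genes), 1 in TTK21 against SKF (3.57%), 3 in TTK21 against SKF+Aβ (0.507%) and 5 in TTK21 against Vehicle (1.22%). The test over 5 groups called 5 members with DESeq2, 2 without its independent filtering (beside 2.12%), and 14 without the filter (5.55%). Without the filter 25251 genes were tested, and calls over all genes in SKF+Aβ against SKF went from 312 to 1311, with 822 under DESeq2, 425 under the block and 12 of 14399 with only the 4 libraries compared, where 0 members were called in any of the 8 comparisons. DESeq2 called 452 genes in Vehicle against SKF, where edgeR called 3, and 355 in TTK21 against SKF, where edgeR called 1. The block changed the call of no other member in edgeR. No source says that equal replicate numbers pair the samples, and libraries with the same number had deviations that correlated at between -0.0691 and 0.237. Without single libraries, the median of all members ranged from -0.55 to -0.14 in SKF+Aβ against SKF, from -0.54 to -0.16 in Vehicle against SKF, from -0.20 to 0.22 in TTK21 against SKF, and from -0.18 to 0.33 in CSP-TTK21 alone against SKF. For the transport and homeostasis genes the ranges were -0.54 to -0.010 in Vehicle against SKF, -0.17 to 0.35 in TTK21 against SKF, -0.15 to 0.40 in CSP-TTK21 alone against SKF, and -0.21 to 0.22 in TTK21 against CSP-TTK21 alone. Single genes were refitted without libraries only for Gfap, Vim, the members with the highest and lowest values of a comparison, and the 4 called genes of the further astrocyte lists. Of these, the ones that changed sign were Gfap in Vehicle against SKF+Aβ (-0.34 to 0.33), in TTK21 against SKF+Aβ (-0.22 to 0.44, and -0.012 with library totals) and against CSP-TTK21 alone (-0.030 to 0.14, and -0.018 with library totals), Vim in Vehicle against SKF (-0.29 to 0.25) and in TTK21 against CSP-TTK21 alone (-0.14 to 0.076), and Aqp4 in SKF+Aβ (-0.16 to 0.68), Vehicle (-0.29 to 0.56) and CSP-TTK21 alone (-0.0074 to 0.87) against SKF. The cause of these changes was not tested. With 2 libraries per group and standard errors of 0.14 to 0.30, log2 differences of the size seen in most members could not be told from the spread between replicates.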
